A study of Mus musculus with 2 samples.

Results

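Cells carrying MHC class II transcripts outside the B cell, plasmacytoid, C1q macrophage, neutrophil and red cell compartments were examined in bone marrow of mice lacking site-1 protease (S1P) in the osterix lineage. The 2 libraries, 1 per genotype, were made from C57BL6/J limb marrow at postnatal day 21 after collagenase release of the cells and lysis of red blood cells. The study describes its WT mice as carrying floxed Mbtps1, the gene of S1P, without Cre, and the S1P Cko mouse carried the floxed alleles with the Osx1-GFP::Cre transgene, in which the osterix promoter drives Cre in cells of the bone-forming lineage. The study proposes that this promoter is also active in hematopoietic cells. It found the floxed exon deleted in sorted marrow neutrophils of Cko mice. Whether the cells described here carried the deletion was not tested. Mice with the transgene and no floxed allele were not analysed here, so the transgene and the deletion cannot be told apart. Cells were chosen by measured values: a selected cell held 200 or more genes and 10 or more UMIs (unique molecular identifiers, the counted mRNA molecules) over Cd74, H2-Aa, H2-Ab1 and H2-Eb1. It also had to hold no UMI of Cd79a, Cd79b, Ms4a1 or Siglech, under 5 UMIs of C1qa, C1qb and C1qc, under 5% of its UMIs in the neutrophil genes Camp, Ngp, Ltf, Lcn2, S100a8 and S100a9, and under 1% in hemoglobin genes. This gave 14 of 6271 WT cells and 52 of 3662 Cko cells, or 66 of 9933 in all.

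MHC class II molecules are pairs of an alpha and a beta chain that display peptides from endosomes to CD4 T cells. The invariant chain, encoded by Cd74, guides the new pair to the endosome, where proteases such as cathepsin S degrade it and the H2-DM heterodimer exchanges the remaining fragment for peptide. Conventional dendritic cells hold these genes at high levels; the type 1 subset is specialised for cross-presentation, the type 2 subset for priming CD4 T cells, and some monocytes and macrophages also carry class II.

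The Y box, a CCAAT motif read in reverse as ATTGG, is a shared element of class II promoters, and it is shown for the 2 of the 4 selection genes that the promoter table holds. In the RefSeq promoter table (build GRCm38.p6), H2-Aa, whose gene lies at chr17:34282744-34287823 on the minus strand, and H2-Eb1, at chr17:34305867-34316674 on the plus strand, both hold CTGATTGG on the strand of the gene. The last 100 bases before the annotated start are given 5′ to 3′, with CTGATTGG in capitals, for chr17:34287824-34287923 (minus strand, H2-Aa) and chr17:34305767-34305866 (plus strand, H2-Eb1).
H2-Aa: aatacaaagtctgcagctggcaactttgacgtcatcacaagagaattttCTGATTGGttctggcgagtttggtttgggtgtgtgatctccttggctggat
H2-Eb1: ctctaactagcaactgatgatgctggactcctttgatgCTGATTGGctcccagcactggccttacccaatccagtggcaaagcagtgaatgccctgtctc
The motif began 51 bases before the start in H2-Aa, 62 in H2-Eb1 and 46 in H2-Oa. The shorter ATTGG, which is part of CTGATTGG, lay 61 bases before the start of H2-DMb1, 90 before that of H2-DMb2 and 57 before that of H2-Ob. An H2-DMa entry held it 198 bases before its start, and the other H2-DMa entry held no match. Of 32851 promoters in the table, 3.83% held CTGATTGG and 33.8% held ATTGG on either strand within 250 bases. H2-Ab1 and Cd74 had no entry. A match of letters is a description and does not show that a factor was bound.

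The libraries held 56382459 UMIs in WT and 34447224 in Cko, with median UMIs per cell of 6977 and 7440. Cells with 5% or more neutrophil-gene UMIs made up 15.8% of WT and 38.3% of Cko cells, and those with 1% or more hemoglobin UMIs 50.2% and 13.2%. Of 28 barcodes present in both libraries, none was a selected cell, and none of the selected cells was among the 127 WT and 51 Cko barcodes that Scrublet called doublets. The selected cells were shallower than their libraries, with a median of 4966 UMIs in WT (3192 to 11854) and 4689 in Cko (3206 to 11018), and the ranges overlapped. With 1 library per genotype, genotype and library cannot be told apart. All intervals are 95% intervals that cover counting error only, and no test between genotypes was made.

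Selected cells made up a larger share of the Cko than of the WT library, and this held after setting aside the cells that differed most between the libraries. They were 0.223% of WT cells (exact binomial interval 0.122 to 0.374) and 1.42% of Cko cells (1.06 to 1.86), a ratio of 6.36 (exact interval 3.47 to 12.4). Among cells under the hemoglobin limit the shares were 0.448% and 1.64%, a ratio of 3.65 (1.996 to 7.14). Among cells under both the hemoglobin and neutrophil limits they were 0.626% and 2.90%, a ratio of 4.64 (2.53 to 9.06). Starting from 147 WT and 214 Cko cells with 10 or more class II UMIs, the B cell genes removed 114 and 145, Siglech 4 and 7, and C1q 11 and 8. Few cells lay at the threshold: 1 WT and 5 Cko cells held 10 to 12 class II UMIs, while 3 and 5 cells meeting every other part of the rule held 7 to 9.

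The 4 class II genes themselves ranged widely from cell to cell. Their summed UMIs per cell ran from 10 through a median of 53 to 272 in WT, and from 10 through 48 to 648 in Cko, so the 2 libraries overlapped over the whole WT range. Cd74 was read in every selected cell, with 3 to 115 UMIs in WT (median 29.5) and 8 to 235 in Cko (median 36.5). H2-Aa, the alpha chain of I-A, was read in 13 of 14 WT cells (median 12.5, highest 57) and 43 of 52 Cko cells (median 7.5, highest 151). Its partner H2-Ab1 was read in 13 WT cells (median 8, highest 70) and 42 Cko cells (median 6.5, highest 139). The cells were selected on these UMI counts, which are given as a description. In hemoglobin-rich cells (10% or more hemoglobin UMIs), which should lack class II, a UMI of any of the 4 genes appeared in 9.04% of WT and 13.8% of Cko cells at median depths of 6071 and 8050 UMIs, and 10 or more UMIs in 0.896% and 0.691%.

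UMIs of both chains of a class II molecule were not read in every selected cell, and at these depths a chain with no UMI may still be expressed. All 4 genes were read in 10 of 14 WT and 30 of 52 Cko cells. In 3 Cko cells every class II UMI was Cd74, and 8 Cko cells and 0 WT cells held fewer than 2 UMIs of H2-Aa, H2-Ab1 and H2-Eb1 together. Cd74 made up 47.4% of the summed class II UMIs in WT and 51.7% in Cko.

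**Figure D1:**
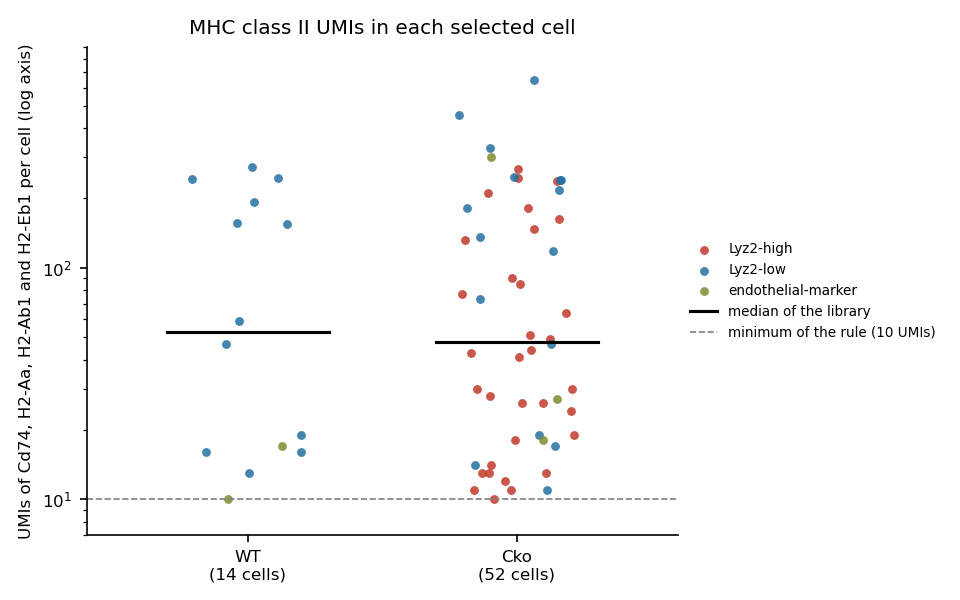
Summed UMIs of Cd74, H2-Aa, H2-Ab1 and H2-Eb1 in each selected cell (log axis) of the WT and Cko libraries, with points coloured by Lyz2 share or endothelial markers, a bar at each library's median and a dashed line at the minimum of 10 UMIs. The medians lie at 53 and 48 UMIs, and the 33 Lyz2-high cells are all in the Cko library.

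The name dendritic-like was checked against defining markers, and it described only part of the selected cells. A cell was counted as holding a marker set at 2 or more summed UMIs. The type 1 set (Naaa, Wdfy4, Ifi205, Cadm1 and Clec9a, of which each library lists 4) was held by 4 of 14 WT and 7 of 52 Cko cells. The type 2 set (Cd209a, Cd209d, Clec10a and Mgl2) was held by 7 and 14 cells. Either set was held by 9 WT cells (64.3%, 35.1 to 87.2) and 18 Cko cells (34.6%, 21.97 to 49.1), leaving 5 and 34 cells with neither. In hemoglobin-rich cells the type 1 set was held by 0.584% of WT and 0.230% of Cko cells and the type 2 set by 0.234% and 0.230%. Because most Cko cells held neither set, the cells are called class II cells below.

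The set held most often was that of monocytes. Of its genes Ly6c2, F13a1, Fn1, Ccr2, Ms4a4c and Vcan, 5 are listed in WT and 6 in Cko. Together they reached 2 UMIs in 11 of 14 WT and 51 of 52 Cko class II cells, against 4.48% and 5.99% of hemoglobin-rich cells. All 9 WT and 18 Cko cells with a dendritic set also held the monocyte set, so holding it does not mark a cell as a monocyte rather than a dendritic cell. Its genes were not equally read. In the 12 WT cells with under 5 stromal and endothelial UMIs, Ccr2 was read in 11, Ly6c2 in 7, F13a1 in 2 and Fn1 in 0. In the 33 Cko cells called Lyz2-high below, these genes were read in 32, 31, 25 and 25. The macrophage set (7 genes listed in WT, 5 in Cko) was held by 2 WT and 10 Cko cells and the progenitor set by 3 and 8. The stromal and endothelial set was held by 3 and 3, the plasmacytoid set by 1 and 1, and the basophil and mast cell set by 1 and 0. In the deeper hemoglobin-rich cells of WT and Cko the macrophage set was held by 3.51% and 2.53%, the progenitor set by 14.4% and 19.6%, and the stromal and endothelial set by 8.65% and 11.3%. The progenitor set in Cko class II cells (15.4%, at most 4 UMIs) was not above that level. The B cell, T and NK cell, and mature dendritic cell sets were held by 0 cells of either library, which with a floor of 3 cells allows up to 21.4% of the WT cells (exact upper limit 23.2%). The empty B cell set was largely fixed by the rule, which bars Cd79a, Cd79b and Ms4a1. Of the 7 mature dendritic markers only 2 are listed in WT and 3 in Cko, so its count of 0 says little.

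**Figure D2:**
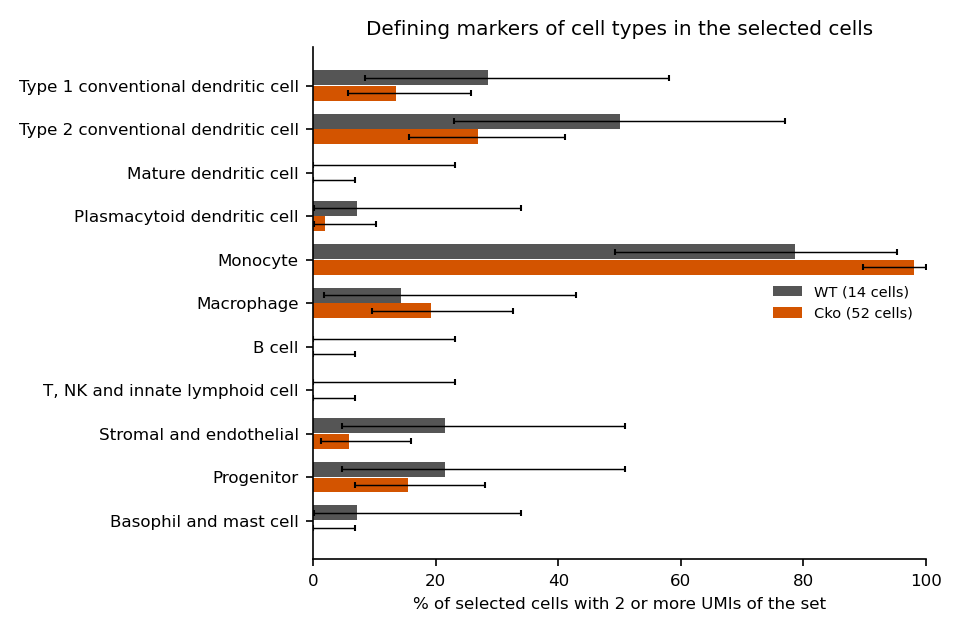
Percent of class II cells with 2 or more UMIs of each set of defining markers in WT (14 cells) and Cko (52 cells), with exact binomial 95% intervals that cover counting error only. The monocyte set is the longest bar in both libraries (11 of 14 and 51 of 52 cells), and the type 1 and type 2 sets are below it.

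Lyz2, the lysozyme gene of monocytes, macrophages and granulocytes, divided the Cko cells. It was 0, 3 and 24 UMIs (lowest, median, highest) in WT class II cells and 0, 87 and 259 in Cko cells. As a share of a cell's UMIs it was at most 0.536% in WT, whereas in 35 of 52 Cko cells it was above 1%. A limit of 1% was set after seeing these values, and cells with 5 or more UMIs of stromal and endothelial markers were set apart, which gave 33 Lyz2-high cells, all Cko, 12 WT and 16 Cko Lyz2-low cells, and 2 WT and 3 Cko endothelial-marker cells. Between 0.5% and 1.5% lay 2 WT and 5 Cko cells, so the limit cuts a range and does not define a type. A Lyz2 UMI was also found in 39.4% of WT and 61.8% of Cko hemoglobin-rich cells, and the part of free RNA in low Lyz2 counts was not tested.

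The Lyz2-high class II cells accounted for most of the larger Cko share. They were 0 of 6271 WT cells, which allows a share of up to 0.0478% by the floor of 3 cells (exact upper limit 0.0588%), and 33 of 3662 Cko cells (0.901%). The Cko share was 18.8-fold higher when WT is set at the floor of 3 cells, with the counting error of the Cko cells left out. Lyz2-low class II cells were 0.191% of WT and 0.437% of Cko cells, a ratio of 2.28 (1.01 to 5.29). Cells with 1% or more Lyz2 that met every part of the rule other than the class II minimum numbered 202 in WT and 347 in Cko, at median depths of 4942 and 4782 UMIs. Of these, 0 WT cells (up to 1.49% by the same floor, exact upper limit 1.81%, and at most 9 class II UMIs) and 35 Cko cells (10.1%, 7.13 to 13.7) reached 10 class II UMIs. The 2 sets of cells were not alike in other genes: the neutrophil elastase gene Elane stood at 565 CPM (UMIs per 1000000 UMIs) in WT and 125 in Cko, and Apoe at 91.8 and 1080. Among those with no Elane UMI, 0 of 105 WT and 31 of 256 Cko cells reached 10 class II UMIs.

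**Figure D3:**
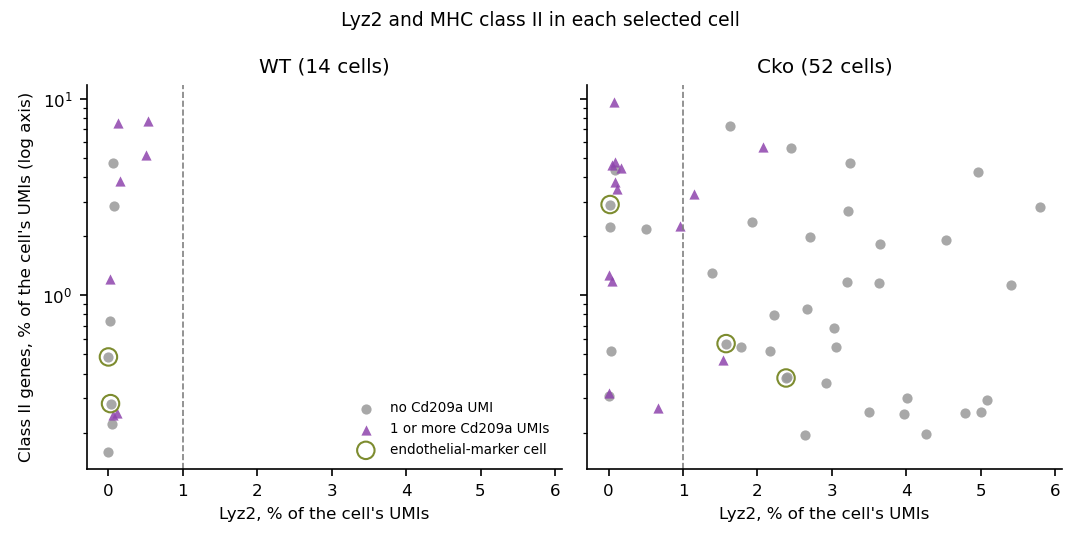
Percent of each class II cell's UMIs in Lyz2 (horizontal axis) against percent in the 4 class II genes (vertical log axis) for WT and Cko, with triangles for cells with a Cd209a UMI, rings for endothelial-marker cells and a dashed line at 1% Lyz2. No WT cell lies right of the line (highest 0.536%), and the Cko cells spread on both sides.

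Within the Cko library the Lyz2-high and Lyz2-low cells differed in monocyte, macrophage and dendritic genes. These values are a description, since the cells were divided by Lyz2 itself. Fn1 (fibronectin) was 14.2-fold higher in Lyz2-high cells, Apoe (apolipoprotein E) 24.8-fold, Cebpb (a transcription factor of monocytes and granulocytes) 10.4-fold and Ly6c2 (a surface antigen of classical monocytes) 5.57-fold. Cd209a was 5.92-fold lower in Lyz2-high cells (15 UMIs in 3 of 33 cells against 57 UMIs in 11 of 16), Irf8 3.12-fold lower, Cst3 2.86-fold lower and H2-Ab1 2.90-fold lower. Class II UMIs per cell had a median of 41 in Lyz2-high cells (10 to 268) and 159 in Cko Lyz2-low cells (11 to 648), ranges that overlapped. All 4 class II genes were read in 15 of 33 Lyz2-high and 14 of 16 Lyz2-low Cko cells, and the 3 cells with Cd74 alone were all Lyz2-high. The median share of Cd74 in a cell's class II UMIs was 69.2% and 52.8%. The type 2 set was held by 3 of 33 Lyz2-high and 11 of 16 Lyz2-low Cko cells, and by 7 of 12 Lyz2-low WT cells.

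Each gene's level in class II cells was also set against all other cells of its library. Of 1456 genes with 30 or more UMIs over the class II cells of both libraries, 287 were 2-fold or more higher in both, which is 19.7% of the genes tested. The median log2 fold of all tested genes was 0.46 in WT and 0.32 in Cko. Genes entered through their UMIs in the class II cells, the group in which a fold is then high, so these folds are tilted upward by the filter and are a description. By list, 10 of 13 endosomal genes passed, 8 of 9 interferon-stimulated, 4 of 5 macrophage, 9 of 16 monocyte, 6 of 8 type 2 and 3 of 4 type 1 dendritic genes, and 0 of 13 mitosis genes. Leaving out the 4 genes of the rule, and among genes with a UMI in 25% or more of the class II cells of each library, Cd209a (a C-type lectin of type 2 dendritic cells and monocyte-derived cells) had the largest fold, 337 in WT and 123 in Cko. It was followed by H2-DMb1, the beta chain of H2-DM, at 84.0-fold and 25.8-fold. Its partner H2-DMa stood at 21.9-fold and 12.8-fold and Ctss (cathepsin S) at 15.0-fold and 13.2-fold. Others among the first 20 were Ckb (creatine kinase B), Pid1, Cx3cr1 (the fractalkine receptor), Fcgrt (the neonatal Fc receptor), Wfdc17, Ms4a4c, Ms4a6b, Ahnak, Ppfia4, Tmem176a, Lgmn (legumain, an endosomal protease), Evi2a, Itgb7, Sepp1, Lat2 and Apoe.

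Among the accessory class II genes, the H2-DM pair was read in most cells. H2-DMa had 0, 3.5 and 9 UMIs (lowest, median, highest) in WT and 0, 4.5 and 17 in Cko, with a UMI in 13 of 14 and 48 of 52 cells. H2-DMb1 had 0, 4.5 and 8 UMIs in WT and 0, 2.5 and 16 in Cko, in 11 and 37 cells. The libraries overlapped for both genes, and their Cko/WT ratios were 1.26 (0.932 to 1.72) and 0.823 (0.600 to 1.15). H2-Oa and H2-Ob, which encode the H2-O inhibitor of H2-DM and are typical of B cells, were scarce: H2-Ob had 3 UMIs in WT and 2 in Cko, and H2-Oa, not listed in WT, had 12 UMIs in 7 Cko cells. They were also low in cells with 10 or more class II UMIs and a B cell gene. WT H2-Ob was at 40.4 CPM (8.33 to 118) against 70.5 (47.6 to 101) there. Cko H2-Oa was at 44.3 (22.9 to 77.5) against 70.1 (53.2 to 90.6), so both intervals overlapped. Cko H2-Ob did not overlap, at 7.39 (0.895 to 26.7) against 88.3 (69.2 to 111). H2-DMb2 had 0 UMIs in WT and 8 in 4 Cko cells. Ciita, Rfx5 and Rfxank, regulators of class II transcription, are not listed in either library's file.

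The type 1 dendritic genes were concentrated in few cells. Naaa, a lipid amidase marking type 1 cells, had 13 UMIs in 4 WT cells and 28 in 15 Cko cells, with a highest value of 5 in each. Ifi205 had 7 UMIs in 2 WT cells and 11 in 7 Cko cells. The 2 WT cells with the most type 1 marker UMIs (8 and 9) held 13 and 10 UMIs of Irf8, the transcription factor on which type 1 cells depend, and 107 and 68 of Cst3. Of the Cko cells, the highest type 1 count was 8, in a cell with 246 class II, 21 Irf8 and 183 Cst3 UMIs. Xcr1 and Itgax are not listed in either library, Clec9a is listed in Cko alone (2 UMIs in 1 cell) and Batf3 in WT alone (6 UMIs in 4 cells). Of 4 type 1 genes tested, beside 9.34% higher and 9.27% lower over all genes, 0 were higher and 1 was lower in Cko. This was Cd24a (0.242, 0.130 to 0.446, and 0.129 without the endothelial-marker cells), which was read in 99.7% or more of hemoglobin-rich cells of either library.

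Type 2 dendritic genes were led by Cd209a, with 24 UMIs in 7 of 14 WT cells (median 0.5, highest 8) and 72 in 14 of 52 Cko cells (median 0, highest 15). It was read in 0.0390% of WT and 0% of Cko hemoglobin-rich cells. The share of class II cells with a Cd209a UMI was 50% in WT and 26.9% in Cko, and after thinning to 3000 UMIs 42.9% and 26.9%, but the summed level had a ratio of 0.823 (0.512 to 1.37), so no order was read. Of 8 type 2 genes tested 3 were higher in Cko and 0 lower (9.34% and 9.27% over all genes): Clec4a2 (7.04, 2.32 to 34.9), Clec4a1 (3.98, 1.47 to 15.1) and Cd300a (2.04, 1.01 to 4.66). In the Lyz2-low cells they had too few UMIs to be tested and ratios of 2.74 (0.740 to 15.1), 1.71 (0.494 to 7.49) and 1.30 (0.546 to 3.30), and Cd300a missed 2-fold without the endothelial-marker cells (1.91) or without the WT cell richest in progenitor markers (1.93). Cd209d and Sirpa, an inhibitory receptor of type 2 cells and monocytes, had ratios of 2.09 (0.820 to 6.79) and 1.30 (0.599 to 3.24). Cd209d in the Lyz2-low cells alone was 5.07-fold higher in Cko (1.99 to 16.5), with 5 UMIs in 3 WT cells and 37 in 8 Cko cells. Within Cko, Clec4a2, Clec4a1 and Cd300a were 3.42-, 3.08- and 1.77-fold higher in Lyz2-high than in Lyz2-low cells. Cd209a, Cd209d and Clec10a were 5.92-, 57.6- and 15.6-fold lower in Lyz2-high cells, where Cd209d and Clec10a had 1 UMI each.

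Of the genes shared by dendritic cells, Id2, a transcriptional inhibitor required for conventional dendritic cells, was higher in Cko. It had 0, 1 and 7 UMIs (lowest, median, highest) in WT and 0, 2 and 23 in Cko, overlapping ranges with a ratio of 2.17 (1.43 to 3.44). Its ratio in the Lyz2-low cells was 2.47 (1.54 to 4.12), with the WT cell richest in progenitor markers kept among them. In all class II cells without that WT cell it was 1.83 (1.20 to 2.89), under 2-fold. Irf8 had 36 UMIs in 8 WT cells and 106 in 35 Cko cells, a ratio of 0.808 (0.549 to 1.22). Flt3, the receptor for the growth factor of dendritic cell precursors, had 2 UMIs in WT and 8 in Cko. The defining markers of mature dendritic cells were near 0, with at most 1 UMI in a cell of either library. Among them Ccr7, which directs mature cells to lymph nodes, had 0 UMIs in Cko and is not listed in WT. The wider list of mature dendritic genes was read more often, with 27 UMIs in 8 WT cells and 103 in 44 Cko cells. Its summed level was 364 CPM in WT and 381 in Cko class II cells, against 181 and 302 in the other cells. Bst2, high in plasmacytoid cells, was lower in Cko (0.461, 0.283 to 0.764), but its ratio was 0.974 (0.522 to 1.85) in the Lyz2-low cells and 0.635 (0.364 to 1.15) without the endothelial-marker cells.

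Between the genotypes, Lyz2 and other monocyte genes were higher in Cko class II cells. At 2-fold or more, with the exact interval excluding equality, 136 of the 1456 tested genes were higher in Cko (9.34%) and 135 were lower (9.27%), with a median log2 ratio of −0.07. With TMM scaling, which moved the log2 ratios by 0.37, 234 were higher and 68 lower, so the split between directions depends on the scaling. The ratios of H2-Ab1, H2-DMb1, Cst3, Cd209a, Ms4a6c and Irf8, below equality as given here, come out above it with TMM scaling, and Bst2 then misses 2-fold. Cd74 had a ratio of 1.18 (1.09 to 1.29), H2-Aa 1.15 (1.01 to 1.31), H2-Ab1 0.782 (0.688 to 0.891) and H2-Eb1 1.15 (0.959 to 1.39). In the Lyz2-low cells alone the 4 genes were at 1.44, 1.503, 1.23 and 1.73, and without the 1 WT cell richest in progenitor markers, in all class II cells, at 1.01, 0.983, 0.670 and 0.966. That WT cell is itself Lyz2-low. It held 11854 of the 67201 UMIs of the 12 Lyz2-low WT cells, and 19 class II UMIs. It was kept in every Lyz2-low ratio given here, and Lyz2-low ratios without it were not computed. The cells were selected on these 4 genes, so the ratios are a description.

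Genes were ranked by ratio if 5 or more cells of the higher library held a UMI and no cell held over 25% of that library's UMIs, which leaves out genes such as Mpo and Cd24a that rest on few cells. The 8 genes with the highest ratios were then Cebpb, Lyz2, Smpdl3a, Gm9733, Gsr (glutathione reductase), Cap1 (an actin turnover protein), Sirpb1c and Csf1r (the receptor for macrophage colony-stimulating factor). Cebpb had 2 UMIs in WT and 195 in 38 Cko cells, a ratio of 26.8 (7.31 to 223), which was 50.9 without the endothelial-marker cells, when 1 of the WT UMIs was left. Lyz2 had 77 and 5207 UMIs, a ratio of 18.6 (14.8 to 23.6). The other 6 lay between 11.3 and 16.3, each with 1 to 4 WT UMIs and with lower bounds between 1.91 and 4.42. In the Lyz2-low cells the ratio of Lyz2 was 1.40 (1.06 to 1.87), a fall fixed by the split, since these cells were cut by Lyz2 itself. That of Smpdl3a was 3.09 (0.639 to 29.3) and that of Cap1 10.97 (1.70 to 460), with 1 WT UMI and 16 Cko UMIs of Cap1.

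The 8 genes with the lowest ratios in the same ranking were Ranbp1 (a nuclear transport cofactor), Ptges3, Tubb4b (a beta tubulin), G3bp1, Set, Banf1, Smc4 (a condensin subunit) and Dock10. Ranbp1 had 0, 2 and 11 UMIs (lowest, median, highest) in WT and 0, 1 and 4 in Cko, overlapping ranges with a ratio of 0.181 (0.115 to 0.283). The other 7 ran from 0.242 to 0.311. In the Lyz2-low cells the ratio of Ranbp1 was 0.192 (0.0980 to 0.353), and that of Dock10 was 0.411 (0.159 to 1.003).

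**Figure D4:**
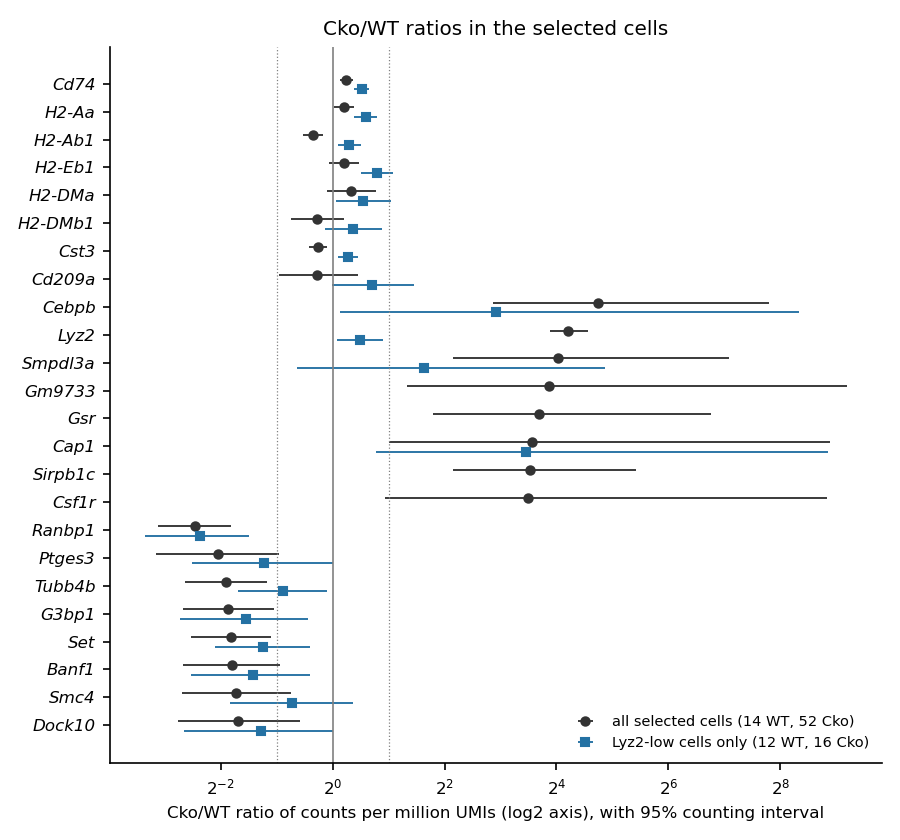
Cko/WT ratios of CPM with exact 95% counting intervals (log2 axis) for the rule genes, H2-DMa, H2-DMb1, Cst3, Cd209a and the 8 highest and 8 lowest ratios among genes held by 5 or more cells of the higher library with at most 25% of its UMIs in 1 cell, in all class II cells (circles) and in the Lyz2-low cells alone (squares, where tested). Lyz2 is at 18.6 in all class II cells and 1.40 in the Lyz2-low cells, a fall fixed by the split, since these cells were cut by Lyz2 itself. Ranbp1 is at 0.181 and 0.192.

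Of 16 monocyte genes tested, 8 were higher in Cko and 0 lower, beside 9.34% and 9.27% over all genes. Their median log2 ratio was 1.11 against −0.07 over all genes. With TMM scaling 12 were higher and 0 lower, beside 16.1% and 4.67%. In Lyz2-low cells 1 of 9 tested was higher, Ly86, against 3.99% of all genes tested in those cells. Ly6c2 had 0, 0.5 and 14 UMIs (lowest, median, highest) in WT and 0, 4.5 and 30 in Cko, a ratio of 2.84 (1.97 to 4.22). Fn1, picked here after its values were seen, had 0 UMIs in WT and 117 in 30 Cko cells. It was 10.7-fold higher with WT at the floor of 3 UMIs and the Cko counting error left out. Ms4a6c and Ccr2, the chemokine receptor of classical monocytes, had ratios of 0.997 (0.775 to 1.30) and 1.56 (1.08 to 2.34). Of 5 macrophage genes tested 2 were higher in Cko: Apoe (0, 0 and 13 UMIs in WT, 0, 8.5 and 65 in Cko; 5.14, 3.56 to 7.69, and 19.7 without the endothelial-marker cells) and Trf, transferrin (4.39, 1.95 to 12.3).

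Some genes of antigen processing and of class I presentation were higher in Cko, while the median class I gene was lower. Of 13 endosomal genes tested 3 were higher and 0 lower, beside 9.34% higher and 9.27% lower over all genes. Ctss had 0, 2.5 and 10 UMIs (lowest, median, highest) in WT and 0, 8 and 21 in Cko, a ratio of 2.45 (1.83 to 3.35). The others, named after their values were seen, were the cathepsin C gene Ctsc (3.66, 1.61 to 10.3) and Lamp1 (2.43, 1.51 to 4.13). In the Lyz2-low cells 0 of 8 endosomal genes were higher, near the 3.99% of all 727 genes tested there. Ctss was at 1.39 (0.978 to 1.98) in those cells. Cst3 (cystatin C, an inhibitor of cathepsins) had a ratio of 0.834 (0.744 to 0.936). Of 10 class I genes tested 3 were higher and 1, Calr, was lower. The median log2 ratio of the 10 was −0.39 against −0.07 over all genes (−0.02 against 0.30 with TMM scaling). Among those higher, the heavy chains H2-K1 (2.50, 1.68 to 3.87) and H2-D1 (2.45, 1.90 to 3.22) were also higher in Lyz2-low cells (2.09 and 2.35). B2m, their light chain, had a ratio of 1.21 (1.04 to 1.40).

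Receptor signalling genes were higher in Cko in 7 of 16 tested and lower in 0 (10 and 0 with TMM scaling), beside 9.34% and 9.27% over all genes. Tyrobp, an adaptor of activating receptors, had 0, 7 and 23 UMIs (lowest, median, highest) in WT and 5, 19.5 and 47 in Cko, a ratio of 2.90 (2.37 to 3.59). Fcer1g, the Fc receptor gamma chain, had a ratio of 2.06 (1.70 to 2.50), or 1.82 without the WT cell richest in progenitor markers. None of 6 tested in the Lyz2-low cells passed, near the shares over the 727 genes tested there (3.99% higher and 6.60% lower). Of 9 immediate early genes 3 were higher, among them Fos with 0 UMIs in WT and 61 in 13 Cko cells. Fos was 5.58-fold higher with WT at the floor of 3 UMIs and the Cko counting error left out. Of 9 interferon-stimulated genes 1 was higher and 1 lower, near the shares over all genes.

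Mitosis genes were lower in Cko in 9 of 13 tested and higher in 0 (5 and 0 with TMM scaling), beside 9.27% lower over all genes (4.67% with TMM scaling) and with a median log2 ratio of −1.26. Restricted to Lyz2-low cells, 0 of 11 were lower, beside 6.60% of the 727 genes tested there, and the median was 0.02. Ube2c, a ubiquitin-conjugating enzyme of the anaphase, had 0, 0 and 18 UMIs (lowest, median, highest) in WT and 0, 0 and 28 in Cko, ratio 0.478 (0.333 to 0.690), and was just under 2-fold lower, at 0.502, without the WT cell richest in progenitor markers and at 1.10 (0.761 to 1.595) in the Lyz2-low cells. Cells with 10 or more UMIs over the mitosis genes, a limit set after seeing the data, were 6 of 12 Lyz2-low WT cells, 7 of 16 Lyz2-low Cko cells and 1 of 33 Lyz2-high cells. Of 10 chaperone genes linked to ATF6, a transcription factor that S1P cleaves, 4 were lower in Cko, among them Pdia6 (0.416, 0.259 to 0.677) and Calr (0.381, 0.243 to 0.602), and with TMM scaling 2 were lower and 1 higher. Calr was at 0.549 (0.324 to 0.962) without the WT cell richest in progenitor markers. Among Lyz2-low cells 0 of 6 chaperone genes passed, near the 3.99% higher and 6.60% lower over all genes tested there. Their median log2 ratio was −0.72 against −0.95 in all class II cells, and Calr was at 0.514 (0.278 to 0.939). Of the 2 SREBP targets tested, also downstream of S1P, 1 was lower (Fdps; 0.339, 0.170 to 0.684), at 0.766 (0.377 to 1.57) in the Lyz2-low cells. Mbtps1 itself had 3 UMIs in 3 WT cells and 15 in 13 Cko cells. Reads from the 3′ end of the transcript lie outside the deleted exon and check nothing about the deletion. Sp7, the osterix gene, had 0 UMIs in WT and is not listed in Cko.

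A few class II cells carried transcripts of other cell types. All 5 stem and progenitor genes tested were lower in Cko, beside 9.27% lower over all genes. These calls came from 1 WT cell with 82 Mpo and 38 Elane UMIs, without which 0 of the list had enough UMIs to be tested. Of 5 stromal and endothelial genes 3 were lower in Cko. They rested on 2 WT and 3 Cko cells, the endothelial-marker cells, with 10 and 17 class II UMIs in WT and 18, 27 and 301 in Cko, and with Fabp4, a fatty acid binding protein of capillary endothelium, at 46 and 16 UMIs in WT and 33, 56 and 116 in Cko. Without these cells 0 genes of that list were tested. Whether such a barcode held 1 cell or 2 was not tested beyond the Scrublet calls.

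Cells failing 1 part of the rule were set beside the class II cells. B gene cells (10 or more class II UMIs and a B cell gene) numbered 71 in WT and 123 in Cko, Siglech cells 3 and 7, C1q cells 4 and 7, and monocyte-marker cells without 10 class II UMIs 471 and 538. H2-DMb1 was at 714 CPM (535 to 934) in WT and 588 (500 to 686) in Cko class II cells, with intervals above those of the B gene cells, 61.1 (39.9 to 89.5) and 112 (90.7 to 138), and of the monocyte-marker cells, 37.5 and 63.1. The interval of the WT C1q cells (278, 120 to 547) overlapped that of the WT class II cells, and that of the Cko C1q cells (213, 107 to 382) did not. Cd209a was at 323 and 266 CPM, against 21.2 and 43.5 in B gene cells, 0 in C1q cells and 2.48 and 4.204 in monocyte-marker cells. In the 3 WT and 7 Cko Siglech cells it was at 202 and 19.0, on 3 UMIs and 1 UMI. Cst3 was at 5333 and 4446, above all 4 like groups in either library. Apoe, at 404 and 2077, was below the C1q cells (6764 and 5336). Lyz2 was at 1037 (818 to 1296) in WT class II cells, below the WT monocyte-marker cells at 6782, and at 19244 in Cko class II cells, above the Cko monocyte-marker cells at 10581.

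**Figure D5:**
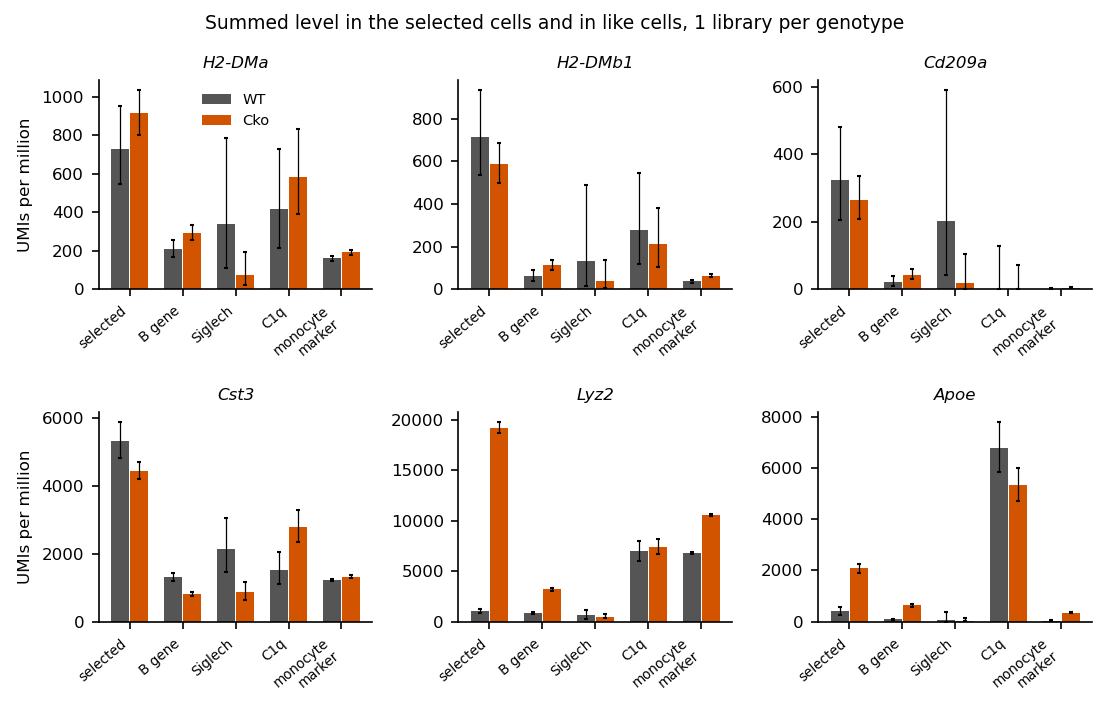
CPM of 6 genes in the class II cells and in 4 groups of like cells (B gene, Siglech, C1q and monocyte-marker), in WT and Cko, with exact Poisson 95% intervals that cover counting error only. H2-DMb1 and Cst3 have their highest bars in class II cells (H2-DMb1 714 and 588, with an interval that overlaps the WT C1q cells), while Lyz2 in class II cells is low in WT (1037) and high in Cko (19244).

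Across class II cells of a library, the genes that varied most with the summed class II genes were described by Pearson's r on the log2(CPM + 100) scale. In WT, over 14 cells, they were Psap (prosaposin, a lysosomal protein; 0.849), Efhd2 (0.792), H2-DMb1 (0.775), Ier3ip1 (0.726) and Mpeg1 (0.721). In Cko, over 52 cells, they were H2-DMb1 (0.484), Jund (0.440), Plbd1 (0.429), Cbfa2t3 (0.423) and Ptms (0.399). H2-DMb1 was the gene named in both libraries. The cells of a library share its preparation and differ in depth, so these values are a description.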

How the data were processed

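Sc-RNA-Seq counts of 2 bone marrow libraries, 1 WT and 1 Cko, were analysed. The deposited values are UMI counts per gene and cell, which the authors made with Cell Ranger on GRCm38 per the labels (version not given in the sources used here). Every listed gene reaches 4 UMIs in at least 1 cell, so an unlisted gene is not taken as a gene at 0. The files' row and column of totals were left out. Counts of the selected cells were summed per library and divided by their total UMIs. Ratios carry exact conditional intervals, levels exact Poisson intervals and shares exact Clopper-Pearson intervals. Genes with 30 or more UMIs over the selected cells and listed in both libraries were compared, and calls needed 2-fold with an interval excluding equality. With 1 library per genotype no p-value was computed, and design and group came from the genotype labels. Scrublet (scanpy 1.11.5) was run on each library to mark doublets, and TMM factors came from edgeR 4.0.16. The intervals of the gene ratios were tested on simulated Poisson counts, where 96.3% held the true value. The simulation had no spread between cells, so it does not show how the intervals do with uneven cells. Shares, folds and set counts were not simulated. Named genes were the class II, dendritic and target lists, the 20 largest folds among genes with a UMI in 25% of members of each library, the 8 highest and 8 lowest ratios among genes held by 5 members of the higher library with at most 25% of its UMIs in 1 member, up to 4 genes with the most UMIs of each other list and the 5 largest correlations per library. The members and lists were chosen with earlier results of these data known. Gene positions are from GENCODE and promoter sequences from RefSeq.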

Additional observations from a re-analysis of the deposited data

How the results depend on the processing

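The log2 ratio of the Cko to the WT share, 2.67, kept its direction under every alternative run. Neither a replicate nor a library could be left out with 1 library per genotype. No paired analysis was possible because each genotype has 1 library. The lower count of genes was 221 at a minimum of 5 class II UMIs. At 20 it was 62, with 74 higher. Thinned to 3000 UMIs, 79 were higher and 60 lower, and at a minimum of 100 UMIs 51 and 18 (88 for the fold). Without a minimum 351 were lower, and with TMM scaling 234 were higher and 68 lower. The monocyte set was held by 84.9% and 100% of cells at minimums of 5 and 20 class II UMIs and by 83.1% after thinning. With 1 UMI per set, type 1 was held by 43.9% and macrophage by 47.0%, and with 3 UMIs macrophage by 6.06%. Chosen after seeing the data, the Lyz2-low cells gave a log2 share ratio of 1.19, 29 genes higher, 48 lower, 122 in the fold, and sets of 32.1% (type 1), 64.3% (type 2) and 7.14% (macrophage). Also chosen then were leaving out the WT cell richest in progenitor markers and leaving out the endothelial-marker cells; without the latter, the stromal and endothelial set was held by 1.64%. The cause of these changes was not tested, other than where fewer cells or UMIs entered by construction. Genes with 1 to 4 WT UMIs are limited by depth.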
